A study of Mus musculus with 2 samples.

Results

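The cornified envelope genes were taken as all gene symbols of the deposited feature list that start with Lce or Sprr followed by a digit, plus Ivl, Lor, Flg, Flg2, Hrnr, Rptn, Cnfn, Cdsn, Tgm1 and Casp14. This gave 46 genes of 32286 features. They were followed in single-cell RNA-seq of mouse skin epidermis, in 2 libraries of differing genotype. The control genotype was Involucrin-CREER/Rosa-SmoM2, where a tamoxifen-inducible Cre under an involucrin promoter switches on SmoM2, an active form of the hedgehog pathway protein Smoothened. The other genotype was Involucrin-CREER/Rosa-SmoM2/Krt14rtTA/Survivin GOF, which added a gain-of-function (GOF) allele of Survivin, the product of Birc5, and a Krt14rtTA driver that places the reverse tetracycline transactivator under a basal keratinocyte promoter. Both genotypes therefore shared the SmoM2 allele, and neither library is a wild-type skin. Sorting had taken YFP-positive, CD34-negative cells with high integrin α6 from both, and the GOF cells also for a Survivin reporter, per the series' design text. Integrin α6 is high on basal and low on differentiated keratinocytes, so this gate bears on every share of cells given here. How many mice were used, of what age and sex, the body site and the time after induction are not given in the sources used here.

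A cornified envelope is the protein shell that replaces the plasma membrane of a keratinocyte in the last steps of its differentiation. Involucrin and loricrin form the scaffold, transglutaminases cross-link it, and small proline-rich (Sprr) and late cornified envelope (Lce) proteins reinforce it, while filaggrin and its relatives bind keratin filaments. The Sprr1 and Sprr2 genes are known to rise in stressed, wounded or hyperproliferative epidermis, and the Lce1 genes to act in the outermost living layers of undisturbed epidermis.

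Filtering to at least 1500 genes per cell and at most 10% mitochondrial counts, left 10993 of 24844 control barcodes and 6922 of 11438 GOF barcodes. The labels state 10000 cells loaded per channel and 8046 control cells, so barcodes outnumber both figures in the control library. The kept cells held 109148304 and 113294993 unique molecular identifiers (UMIs, 1 per captured transcript molecule), with medians of 7717 and 12651.5 per cell. Levels are counts per 1000000 UMIs of the same cells (CPM) and are not divided by gene length, since 3′ tags were counted. With 1 library per genotype no difference could be tested and none has a replicate check. Intervals in brackets are exact 95% intervals and cover counting error only. The Birc5 level, 56.0 CPM (control) and 775 CPM (GOF), went with the labels. The libraries differed in sex. Cells with a Y-linked and no Xist UMI numbered 8036 (control) and 1905 (GOF), and cells with Xist and no Y-linked UMI 32 and 3905, so that genotype, sex and library cannot be told apart. The libraries shared 84 barcodes, 22 of them among kept cells.

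Of the 46 genes, 42 lay in 1 stretch of 1319 kb, chr3:92080271-93399442 (mm10), the epidermal differentiation complex. Cnfn on chromosome 7, Casp14 on 10, Tgm1 on 14 and Cdsn on 17 lay elsewhere. The sets below show the window from 250 bases before to 50 bases after the annotated start, as RefSeq gives it for GRCm38.p6, for Lor and for the gene with the most UMIs in each of 4 families whose levels differed in pattern. Lor lies at chr3:92083093-92083392 on the minus strand, Sprr1b at chr3:92438730-92439029 on the minus strand, Sprr2d at chr3:92338890-92339189 on the plus strand, Lce1b at chr3:92656877-92657176 on the minus strand and Lce3c at chr3:92944236-92944535 on the plus strand. Capitals mark the TATA-box letters TATAAA and the AP-1-like pattern TGANTCA. This pattern takes any base in the middle and so is wider than the AP-1 consensus. The middle base is A in Sprr1b and G in Lor and Sprr2d.
Lor: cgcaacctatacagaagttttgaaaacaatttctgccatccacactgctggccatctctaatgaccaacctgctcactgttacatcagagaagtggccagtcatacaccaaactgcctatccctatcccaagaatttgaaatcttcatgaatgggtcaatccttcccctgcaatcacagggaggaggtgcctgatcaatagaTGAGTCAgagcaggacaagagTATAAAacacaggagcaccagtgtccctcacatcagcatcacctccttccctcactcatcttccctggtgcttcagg
Sprr1b: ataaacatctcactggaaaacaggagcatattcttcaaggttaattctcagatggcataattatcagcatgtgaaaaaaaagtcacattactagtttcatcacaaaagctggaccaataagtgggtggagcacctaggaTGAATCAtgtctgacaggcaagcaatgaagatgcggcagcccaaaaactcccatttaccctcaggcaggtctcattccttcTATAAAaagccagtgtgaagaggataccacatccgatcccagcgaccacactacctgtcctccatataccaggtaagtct
Sprr2d: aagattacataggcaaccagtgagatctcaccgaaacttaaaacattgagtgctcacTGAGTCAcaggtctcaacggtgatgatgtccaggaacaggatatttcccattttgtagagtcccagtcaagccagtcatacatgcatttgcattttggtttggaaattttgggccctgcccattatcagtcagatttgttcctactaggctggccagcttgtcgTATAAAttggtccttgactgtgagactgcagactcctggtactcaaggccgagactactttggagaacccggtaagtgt
Lce1b: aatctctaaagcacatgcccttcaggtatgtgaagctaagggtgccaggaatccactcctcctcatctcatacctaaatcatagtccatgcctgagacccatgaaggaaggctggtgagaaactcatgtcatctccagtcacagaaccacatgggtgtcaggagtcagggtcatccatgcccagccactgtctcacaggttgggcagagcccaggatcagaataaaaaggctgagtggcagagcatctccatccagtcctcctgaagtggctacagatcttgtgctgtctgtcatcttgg
Lce3c: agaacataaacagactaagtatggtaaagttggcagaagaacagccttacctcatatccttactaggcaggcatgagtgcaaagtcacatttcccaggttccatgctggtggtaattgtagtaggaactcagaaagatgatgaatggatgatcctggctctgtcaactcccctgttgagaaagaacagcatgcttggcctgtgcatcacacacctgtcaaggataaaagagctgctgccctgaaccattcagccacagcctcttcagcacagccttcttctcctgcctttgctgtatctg
Lor, Sprr1b and Sprr2d each held 1 match to TATAAA and 1 to TGANTCA, and Lce1b and Lce3c held neither. A window was found for 44 of the 46 genes, 46 windows in all. TATAAA, searched on both strands, was in 19 of these 46 windows (41.3%) and in 13.6% of all 32851 mouse windows of that length. TGANTCA, which reads alike on both strands, was in 14 (30.4%) against 7.81% of all windows. It was in 7 of 10 Sprr2 windows and in both early scaffold windows, and in 0 of 13 Lce1 and 0 of 6 Lce3 windows. The Grainyhead-like motif AACCNGTT, searched on both strands, was in 1 member window (2.17%) against 2.09% of all. A match describes letters, not a bound site, and no match says only that these letters are not in the window.

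Summed over the 46 genes, the kept cells held 16343 (control) and 15791 (GOF) member UMIs. These were 149.7 CPM [147.4, 152.0] and 139.4 CPM [137.2, 141.6], a GOF to control ratio of 0.93 [0.91, 0.95]. The families differed in direction beneath this sum. The 12 measured Lce1 genes were all lower in GOF, 4 Sprr2 and 3 Lce3 genes were higher, and 14 genes lay within 2-fold. Measured means at least 50 UMIs over both libraries, which 33 of the 46 reached, and lower or higher means a ratio of CPM at or past 2-fold. By the same rule 2.19% of the 14912 measured genes of the transcriptome were lower and 2.58% higher, 4.77% in either direction. The median log2 ratio over the 33 genes was -0.48, beside 0.08 over all 14912 genes. The 13 genes under 50 UMIs were Lce1e, Lce1k, Lce3a, Lce3b, Lce3e, Lce6a, Flg2, Rptn, Sprr2a1, Sprr2a2, Sprr2k, Sprr3 and Sprr4. Sprr3 and Sprr4 had 0 UMIs in both libraries, which allows up to 0.0275 CPM in the control and 0.0265 CPM in GOF (3 counts).

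**Figure D1:**
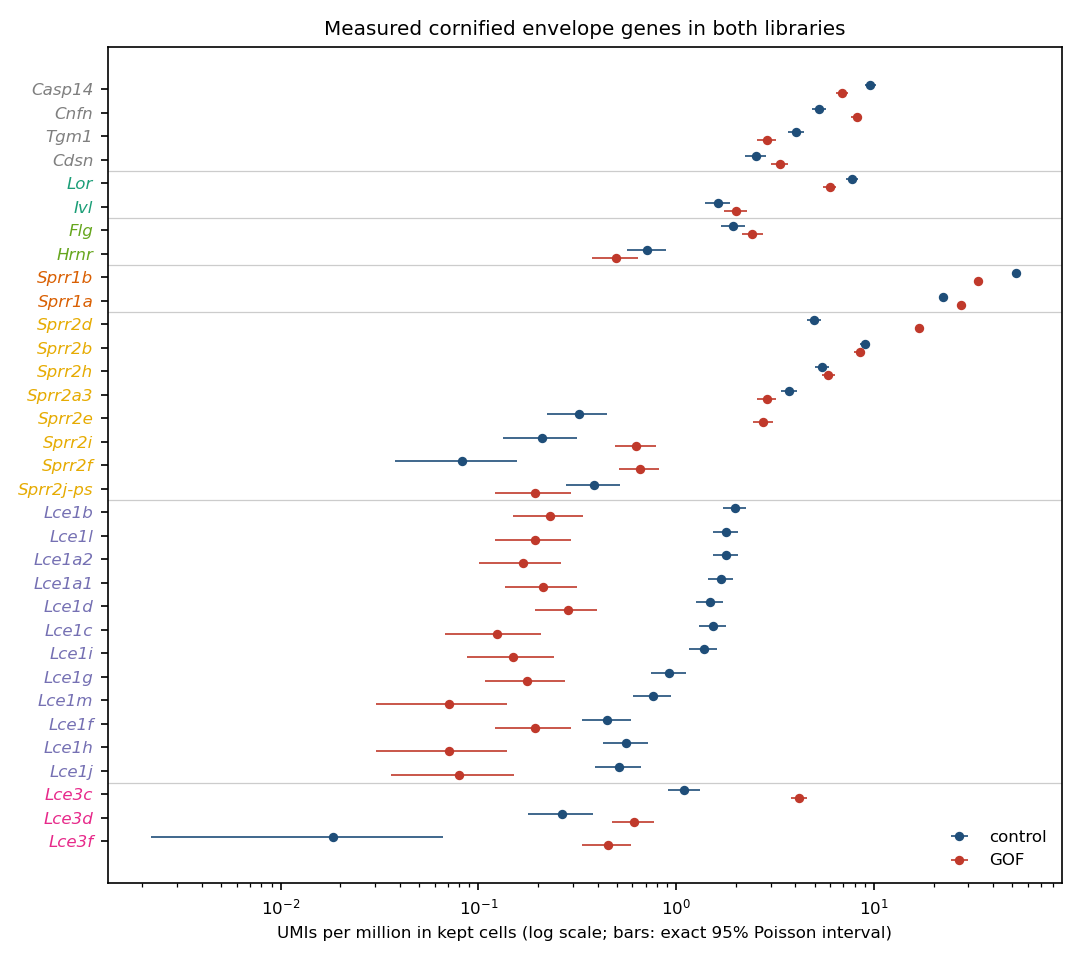
Level of each of the 33 measured genes in the control (blue) and GOF (red) library, in CPM of kept cells on a log axis, with exact 95% Poisson intervals for counting error only. Gene names are coloured by family, and all 12 Lce1 genes sit lower in GOF while Sprr2d, Sprr2e, Sprr2f, Sprr2i and the 3 Lce3 genes sit higher.

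The enzymes and adhesion proteins summed to nearly the same level, 21.4 CPM [20.6, 22.3] in the control and 21.3 CPM [20.4, 22.1] in GOF. Casp14, the protease that processes filaggrin, was at 9.58 CPM [9.01, 10.2] and 6.86 CPM [6.38, 7.36], a ratio of 0.72 [0.65, 0.79]. Tgm1, the membrane-bound transglutaminase that cross-links the envelope, was at 4.05 CPM [3.68, 4.45] and 2.88 CPM [2.57, 3.21], a ratio of 0.71 [0.61, 0.82]. Both were lower in GOF beyond counting error and short of 2-fold. Cnfn, the envelope protein cornifelin, was at 5.30 CPM [4.87, 5.75] and 8.18 CPM [7.66, 8.73], a ratio of 1.55 [1.39, 1.72]. Cdsn, the corneodesmosome protein that holds cornified cells together, was at 2.52 CPM [2.23, 2.84] and 3.34 CPM [3.01, 3.69], a ratio of 1.32 [1.13, 1.55]. The 4 genes also differed in how their UMIs were spread. Casp14 never exceeded 6 UMIs in a cell, and 76.0% of its control UMIs came from cells with 1. In contrast, 1 GOF cell held 297 of the 927 Cnfn UMIs (32.0%), and without the richest cell of each library the log2 ratio of Cnfn was 0.23 in place of 0.63.

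Of the scaffold genes, Lor (loricrin, the bulk protein of the envelope) was at 7.73 CPM [7.22, 8.27] in the control and 5.98 CPM [5.54, 6.45] in GOF, and Ivl (involucrin) at 1.62 CPM [1.39, 1.88] and 2.0 CPM [1.75, 2.28]. Neither differed 2-fold. Flg (filaggrin) was at 1.94 CPM [1.69, 2.22] and 2.43 CPM [2.15, 2.73], and Hrnr (hornerin, its close relative) at 0.715 CPM [0.565, 0.892] and 0.494 CPM [0.373, 0.642]. One GOF cell held 134 of the 275 Flg UMIs (48.7%), and without the richest cell of each library the log2 ratio of Flg turned from 0.32 to -0.51. Flg2 had 24 UMIs in the control and 5 in GOF, and Rptn (repetin) 14 and 26, of which 20 were in 1 cell.

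The Sprr1 genes carried more of the members' UMIs than any other family, 74.7 CPM [73.1, 76.3] in the control and 60.9 CPM [59.5, 62.4] in GOF. Sprr1b was lower in GOF, at 52.4 CPM [51.1, 53.8] and 33.4 CPM [32.3, 34.5], and Sprr1a slightly higher, at 22.3 CPM [21.4, 23.2] and 27.5 CPM [26.5, 28.5]. Both stayed within 2-fold. One GOF cell held 738 of the 3116 Sprr1a UMIs (23.7%), and without the richest cell of each library the log2 ratio of Sprr1a was 0.03 in place of 0.31. The 11 Sprr2 genes summed to 24.3 CPM [23.4, 25.2] and 38.4 CPM [37.3, 39.5], a ratio of 1.58 [1.51, 1.66]. Sprr2d was at 4.97 CPM [4.56, 5.4] and 16.9 CPM [16.2, 17.7], Sprr2b at 9.01 CPM [8.45, 9.59] and 8.46 CPM [7.94, 9.02], and Sprr2h at 5.48 CPM [5.05, 5.94] and 5.86 CPM [5.42, 6.32]. Thus Sprr2d was past 2-fold and the other 2 were not. Sprr2e, Sprr2f and Sprr2i were also past 2-fold, with 35, 9 and 23 UMIs in the control and 312, 74 and 71 in GOF. Single GOF cells held 167, 61 and 60 of these, and without the richest cell of each library the log2 ratio of Sprr2i turned from 1.57 to -0.76 and that of Sprr2h from 0.10 to -0.47. That of Sprr2b went from -0.09 to -0.73, with 401 of its 959 GOF UMIs in 1 cell. Those of Sprr2d, Sprr2e and Sprr2f stayed past 2-fold, at 1.28, 2.88 and 2.65. Sprr2a1 and Sprr2a2 share all 60-base words of their 3′ ends with each other, and Sprr2a3 shares 75.1% with them, so counts among the 3 are uncertain.

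The 14 Lce1 genes summed to 15.2 CPM [14.5, 15.9] in the control and 2.07 CPM [1.82, 2.36] in GOF, 7.32-fold lower, a ratio of 0.14 [0.12, 0.16]. Lce1b, Lce1l and Lce1a2, those with the most UMIs, were at 1.97 CPM [1.72, 2.25], 1.78 CPM [1.54, 2.05] and 1.78 CPM [1.54, 2.05] in the control and at 0.23 CPM [0.15, 0.34], 0.19 CPM [0.12, 0.29] and 0.17 CPM [0.10, 0.26] in GOF. No GOF cell had more than 1 UMI of any of these 3. The 6 Lce3 genes went the other way, 1.57 CPM [1.34, 1.82] and 5.49 CPM [5.07, 5.94], a ratio of 3.5 [2.95, 4.18]. Lce3c was at 1.1 CPM [0.91, 1.31] and 4.17 CPM [3.81, 4.57], and Lce3d at 0.27 CPM [0.18, 0.38] and 0.61 CPM [0.47, 0.77]. Lce3f had 2 control and 51 GOF UMIs, a ratio of 24.6 [6.46, 208]. Of the GOF Lce3f UMIs, 41 were in 1 cell of cluster 24, and the gene reached the UMI minimum only through that cell. Lce3d shares 39.8% of its 3′ words with relatives, Lce1b 25.7% and Lce1j 23.2%. Lce6a had 24 and 10 UMIs.

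The Lce1 difference lay in 2 cells and 3 clusters, and the Lce3 and Sprr2 differences mainly in cluster 24. Of the 1657 control Lce1 UMIs, 918 (55.4%) came from 2 cells of cluster 15, and a further 423, 86 and 38 from clusters 13, 14 and 19, which held 1734, 65 and 197 control cells and 2, 0 and 1 GOF cells. Without the 2 cells alone, Lce1 was at 6.77 CPM [6.29, 7.28] in the control, and the ratio was 0.31 [0.26, 0.36]. The 3 clusters held 18.2% of the control cells. In all other kept cells Lce1 was at 2.22 CPM [1.92, 2.56] in the control and 2.08 CPM [1.82, 2.36] in GOF, a ratio of 0.94 [0.77, 1.14]. There, 1.91% of control and 2.98% of GOF cells had an Lce1 UMI, and no control cell had more than 5. The 7.32-fold difference was thus held by 2 cells and by 3 clusters with next to no GOF cells. Without these cells 1 of the 22 genes still measured was lower in GOF, beside 2.08% of all genes measured, and 7 were higher, beside 2.45%. Of the 622 GOF Lce3 UMIs, 487 (78.3%) were in 1 cell of cluster 24. Without the richest cell of each library for each gene, the log2 ratio of Lce3c was 0.14 and that of Lce3d 0.19. In male-called cells alone the summed Lce3 ratio was 0.21, below 1. Outside cluster 24, Lce3 was at 0.508 CPM in the control and 0.886 CPM in GOF, a ratio of 1.74 [1.24, 2.47]. There 1 cell held 28 of the 100 GOF Lce3 UMIs, while no control cell held more than 2 of 55, so this ratio leans on few cells. Sprr2 turned. Outside cluster 24, Sprr2 was at 20.8 CPM [19.9, 21.6] in the control and 9.87 CPM [9.29, 10.5] in GOF, a ratio of 0.47 [0.44, 0.51]. There the sum over all members was 128.7 CPM [126.5, 130.8] and 74.0 CPM [72.4, 75.6], a ratio of 0.57 [0.56, 0.59], and no measured member was 2-fold higher in GOF, beside 2.5% of all genes, while 15 were lower, beside 2.25%. The cells outside cluster 24 still include clusters 13, 14 and 19 and the 2 Lce1-rich cells. Lce1 was at 15.2 and 1.98 CPM in them, so this ratio and the 15 lower members include the Lce1 difference. These sets of cells were chosen after the values had been seen.

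**Figure D2:**
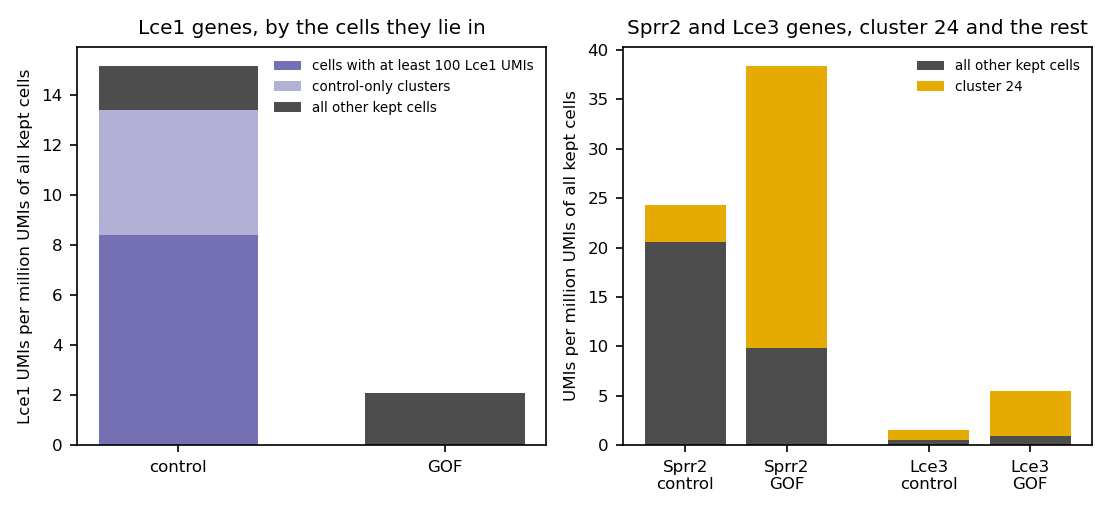
Left, Lce1 level in CPM of all kept cells in each library, split by the cells that held them; right, the same for Sprr2 and Lce3, split into cluster 24 and all other kept cells. The control Lce1 bar is mostly the 2 richest cells and the clusters with at most 2 GOF cells (13, 14 and 19, keyed as control-only), and the remainder is near the GOF level. The GOF bars of Sprr2 and Lce3 are mostly cluster 24, and outside it Sprr2 is lower in GOF. Lce3 is higher in GOF outside it, with 28 of the 100 GOF UMIs in 1 cell.

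The members sat in few cells altogether. No member UMI was found in 6287 of 10993 control cells (57.2%) and 4372 of 6922 GOF cells (63.2%), and 1 UMI in a further 2568 and 1608. The richest 1% of cells held 38.1% of the control and 68.5% of the GOF member UMIs. Reaching 50% of the member UMIs took 300 control cells and 11 GOF cells. Members made up at least 1% of the UMIs of 8 control and 11 GOF cells, and at least 5% of 3 and 1. The highest share in a kept cell was 9.64% in the control and 7.28% in GOF.

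**Figure D3:**
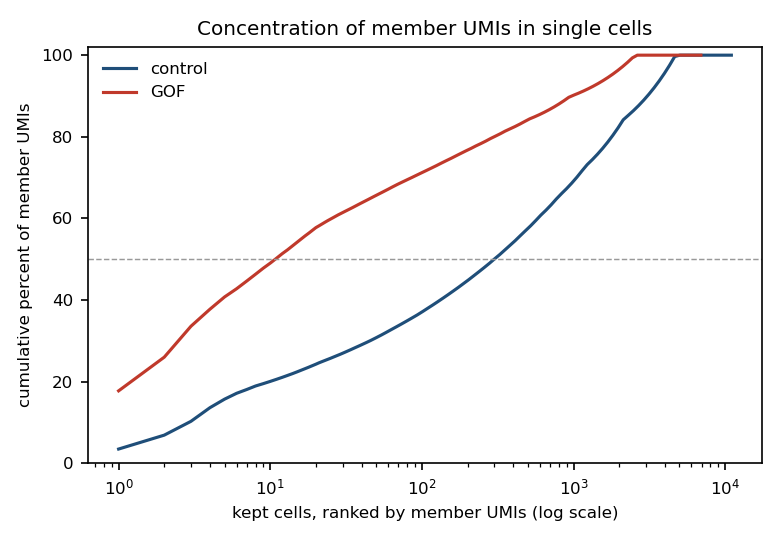
Cumulative percent of member UMIs (vertical axis) held by kept cells ranked from richest to poorest (horizontal axis, log scale), for the control (blue) and GOF (red) library. The dashed line marks 50%, which the GOF curve crosses at 11 cells and the control curve at 300.

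Cell states were found by clustering without the 46 genes, and clusters were named from marker lists where the rule for names was met. The state with the highest member level was cluster 24, left unnamed, with 91 control and 18 GOF cells. Its leading genes were S100a9, S100a8, Krt6b, Slpi and Krt16, antimicrobial and alarm genes with keratins of stressed epidermis. It had 2761 CPM [2652, 2874] of member UMIs in the control and 15758 CPM [15402, 16120] in GOF, and held 14.8% and 47.2% of the member UMIs. The median was 2 member UMIs per control cell and 125 per GOF cell. These medians stand beside total depths of 6645 and 27447 UMIs. In this cluster 3 cells held 61.1% of the control and 71.2% of the GOF member UMIs. Sprr1b was at 1357 and 3830 CPM there, Sprr2d at 197 and 3635 CPM, Cnfn at 128 and 910 CPM, and Lce3c at 92.7 and 865 CPM. Lor and Ivl together had 12 UMIs in the control (13.7 CPM, beside 9.35 CPM over all control cells) and 1 in GOF (2.12 CPM). Other markers moved with the genotype in this cluster. Summed interferon-inducible markers were at 10.3 CPM in the control and 406 CPM in GOF. Bulge markers were at 1657 and 355 CPM and cycling markers at 1377 and 288 CPM. The tail scale list, which includes keratins of stressed epidermis such as Krt6b and Krt16, was at 28005 and 49747 CPM. Its marker Krt36 had 6 and 2 UMIs in the richest control and GOF cell, beside 310 and 313 of Krt16. The part of these lists in the member levels was not tested.

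Cluster 3, named differentiating-like because 18 of 20 markers such as Krt10, Krt1 and Krt2 were up, held 597 control and 372 GOF cells. Its members summed to 552 CPM [531, 572] (control) and 427 CPM [409, 446] (GOF). Sprr1b led it, at 305 and 212 CPM, followed by Sprr1a at 66.9 and 52.5 CPM. Casp14 was at 51.2 and 33.8 CPM, and this cluster had the highest Casp14 and Hrnr of all clusters when both libraries were pooled. Sprr2b, Sprr2d and Sprr2h were at least 2-fold lower in GOF (31.7 and 13.2 CPM for Sprr2d, with 53 of its 63 GOF UMIs in 1 cell), where 1.75% of the 9073 genes measured in the cluster were lower. Ivl and Flg were at least 2-fold higher, where 0.683% of genes were. Flg had 11 control (2.15 CPM) and 180 GOF UMIs there, 134 of the latter in 1 cell, and Ivl 14 and 42, 19 of the latter in 1 cell.

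Cluster 18, named tail scale-like from 7 of 11 markers such as Krt84 and Krt36, was also up for 11 of 20 differentiating markers. It held 445 control and 247 GOF cells, with member levels of 525 CPM [502, 549] and 280.2 CPM [263, 298]. Its mix differed from that of cluster 3. Sprr2b was at 128 and 67.2 CPM and Sprr2a3 at 33.5 and 29.7 CPM, while Sprr2d was at 5.28 and 2.57 CPM. Cnfn (35.1 and 32.6 CPM), Tgm1 (26.1 and 22.9 CPM) and Casp14 (26.1 and 26.0 CPM) were alike in the libraries, and Sprr1b (195 and 50.9 CPM) and Sprr1a (26.1 and 11.4 CPM) were the 2 of 8 measured genes at least 2-fold lower in GOF, beside 1.44% of all genes measured there. Clusters 3 and 18 together held 29.4% [28.7, 30.1] of the control and 19.1% [18.5, 19.7] of the GOF member UMIs.

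Cluster 1, named infundibulum-like or upper follicle-like from 10 of 14 markers such as Cst6, Gata6 and Krt79, held 350 control and 473 GOF cells at 242 CPM [226, 258] and 213 CPM [203, 223]. Here Sprr1a was the main Sprr gene, at 160 and 146 CPM, and Sprr1b was at 15.7 and 3.58 CPM, the reverse order of cluster 3. Single cells held 88 of the 612 control and 341 of the 1140 GOF Sprr1a UMIs. The richest 3 cells of each library held 26.3% of the control and 46.6% of the GOF member UMIs of the cluster. No member UMI was found in 58.9% and 60.3% of its cells. Without the richest cell of each library the members were at 219 and 152 CPM. Cdsn was at 24.9 and 27.8 CPM and held 47.8% of its UMIs in this cluster, and Ivl was at 14.7 and 7.68 CPM. The Cdsn UMIs lay in 19 control and 15 GOF cells of the cluster. Sprr1b and Casp14 were the 2 of 6 measured genes at least 2-fold lower in GOF, beside 1.35% of all genes. Rptn had 0 control and 25 GOF UMIs, 20 of them in 1 cell.

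**Figure D4:**
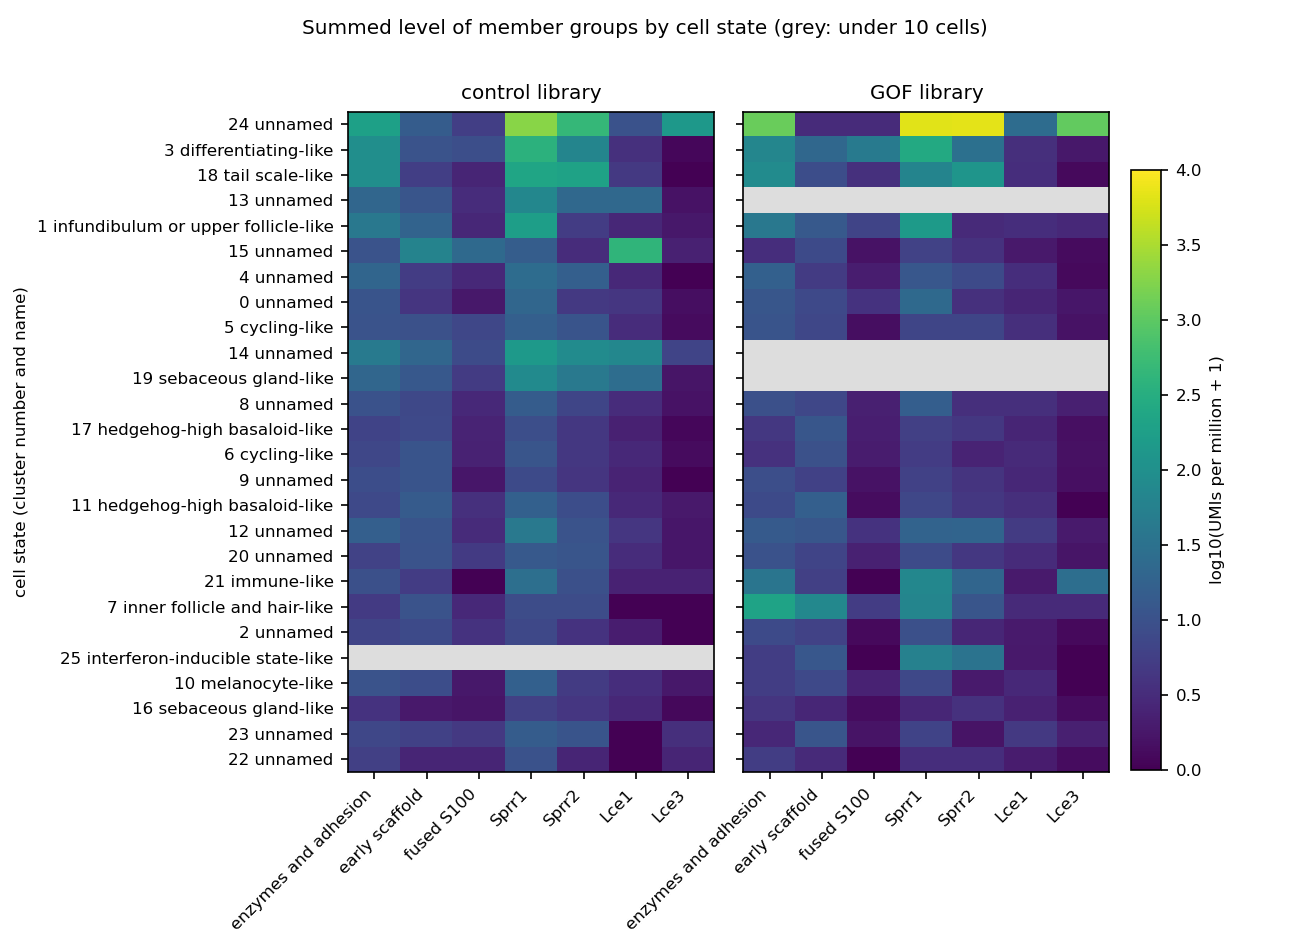
Summed level of 7 member families (columns) in each cell state (rows) for the control (left) and GOF (right) library, as log10(CPM + 1); grey marks states with under 10 cells of a library. Sprr1, Sprr2 and Lce3 peak in cluster 24, Sprr2 is also high in tail scale-like cluster 18, and Lce1 stands out in control clusters 15, 14, 19 and 13.

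Most other named states were low. Sebaceous-like cluster 16 was at 14.5 CPM [11.2, 18.5] and 11.3 CPM [7.75, 15.8], the hedgehog-high basaloid-like clusters 11 and 17 together at 36.3 CPM [32.8, 40.1] and 28.0 CPM [25, 31.2], and the cycling-like clusters 5 and 6 at 42.4 CPM [38.9, 46.1] and 26.7 CPM [24, 29.7]. Melanocyte-like cluster 10, which should lack these genes, was at 41.3 CPM [30.8, 54.1] and 22.2 CPM [16.2, 29.6]. The cluster also held keratinocyte RNA, with basal markers at 31901 and 34490 CPM and differentiating markers at 13025 and 9076 CPM. Its member level is thus a yardstick that may include keratinocyte content, which was not told apart from free RNA. Summed levels in the basaloid-like and cycling-like cells were near that of cluster 10. Those of cluster 16 sebaceous-like cells lay below it in both libraries, with intervals apart, so the melanocyte-like level is not a floor. None of these levels is read as expression. The scaffold genes Lor and Ivl together stood higher in basaloid-like cluster 11, at 13.2 and 15.5 CPM, beside 7.94 and 6.76 CPM in melanocyte-like cells. In basaloid-like cluster 17 they were at 6.68 and 10.9 CPM. Lor was at 6.35 and 6.27 CPM in melanocyte-like cells, close to its level over all cells. After each cell had been thinned to 3000 UMIs, 22.8% [22.0, 23.6] of control and 12.3% [11.5, 13.1] of GOF cells had a member UMI (42.8% and 36.8% before thinning), with 92 and 11 cells too shallow. In cluster 3 the thinned shares were 54.9% [50.8, 59.0] and 40.3% [35.3, 45.5], and in melanocyte-like cells 8.85% [4.33, 15.7] and 5.65% [2.30, 11.3]. Median depths were 7490 and 12027.5 UMIs in cluster 3 and 9336 and 11774.5 in the melanocyte-like cells.

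Within states the summed member level was mostly lower in GOF. In most of the clusters compared, however, it did not lie above that of melanocyte-like cells in both libraries. Among the 16 clusters with at least 100 cells per library, the summed ratio was below 1 in 15, with the counting interval below 1 in 11, spanning 1 in 5 and above 1 in 0. The ratio was 0.77 [0.73, 0.82] in cluster 3, 0.53 [0.49, 0.58] in cluster 18 and 0.88 [0.81, 0.96] in cluster 1. Melanocyte-like cells gave 0.54 [0.35, 0.82]. The level of members in these cells, which should lack them, was therefore also lower in GOF. Immune-like cluster 21 (60 and 52 cells), the other such state, did not share this. Its members were at 52.0 CPM in the control and 158 CPM in GOF, or 34.7 and 32.1 CPM without the richest cell of each library. The part of such background in the other ratios was not tested. The lowest of the 16 ratios was 0.035 in cluster 15, whose control level rested on 2 cells. The exception was unnamed cluster 0, led by Ntrk2 and Klk8, at 1.16 [0.99, 1.37]. In 4 of the 16 clusters (1, 3, 4 and 18) the summed level lay above that of melanocyte-like cells in both libraries, with intervals apart, and single members are read there alone, a limit chosen after the values had been seen. In unnamed cluster 4, Sprr1b and Sprr2a3 were the 2 of 5 measured members at least 2-fold lower in GOF, beside 1.3% of all genes measured there. Sprr1b was at 17.7 and 7.12 CPM in it, beside 14.3 and 3.86 CPM (18 and 8 UMIs) in melanocyte-like cells.

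The clusters with next to no GOF cells had members in most of their cells. Cluster 13 held 1734 control and 2 GOF cells at 146 CPM [140.3, 151] in the control. A member UMI was in 71.3% of the control cells, the highest count in a cell was 17, and the 423 Lce1 UMIs were spread over 332 cells with at most 6 in 1. Cluster 14 (65 control and 0 GOF cells) was at 373 CPM [340.2, 409], with Lce1 at 69.2 CPM [55.4, 85.5]. Cluster 19 (197 control cells and 1 GOF cell) was at 182 CPM [161, 206] in the control. The leading genes of cluster 13 were Col1a1, Ccer2, Slc39a1, Notch2 and Col1a2, and cluster 19 met the naming rule as sebaceous-like with 13 of 14 markers. The summed fibroblast markers of cluster 13 were at 602 CPM with 0 of 7 markers at 0, those of cluster 14 at 426 CPM with 5 at 0 and those of cluster 19 at 419 CPM with 4 at 0. In the other clusters with at least 50 cells of a library they ranged from 12.6 to 3039 CPM. Melanocyte markers summed to 313, 324 and 241 CPM in clusters 13, 14 and 19, beside at most 93.3 CPM in the others once melanocyte-like cluster 10 was set aside. The part of both lists in the Lce1 level was not tested.

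The richest cells were of distinct kinds. The top GOF cell, in cluster 24, had 2806 member UMIs among 38561 (7.28%), led by Sprr1a (738), Sprr1b (404), Lce3c (384), Sprr2d (320) and Cnfn (297). The next GOF cell had 1303, of which 743 were Sprr2d and 401 Sprr2b, with 2718 S100a9 UMIs. The richest 2 control cells, with 574 and 557, were also in cluster 24 and led by Sprr1b and Sprr1a. The next 2 control cells were unlike these. They sat in cluster 15, unnamed and up for 11 of 17 hedgehog and 7 of 11 bulge markers, and had 553 and 545 member UMIs. All 14 Lce1 genes were detected in each, with 456 and 462 Lce1 UMIs, 69 and 51 of Lor and 0 of any Sprr gene. They had 6 Krt10 UMIs each, beside 39 and 38 in the richest 2 control cells, with 68 and 45 UMIs of the differentiating marker list, 12 and 10 UMIs of Asprv1, a protease of terminally differentiating keratinocytes, and 19 and 10 UMIs of the hedgehog marker list. The cluster had 227 control and 202 GOF cells, and its Lce1 UMIs numbered 925 in the control and 3 in GOF. Members reached the UMI minimum there mainly through these 2 cells, so no count of lower members is given. Of control cells with at least 10 Lce1 UMIs, 2 of 2 also had at least 10 of Lor and Flg together and 0 had 10 of the Sprr genes. The 1 such GOF cell had at least 10 Sprr UMIs and fewer than 10 of Lor and Flg, and the 1 such left-out control barcode had 10 of neither. Flg led yet another kind. The tenth GOF cell, in cluster 3, had 134 Flg, 13 Hrnr and 355 Krt10 UMIs.

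**Figure D5:**
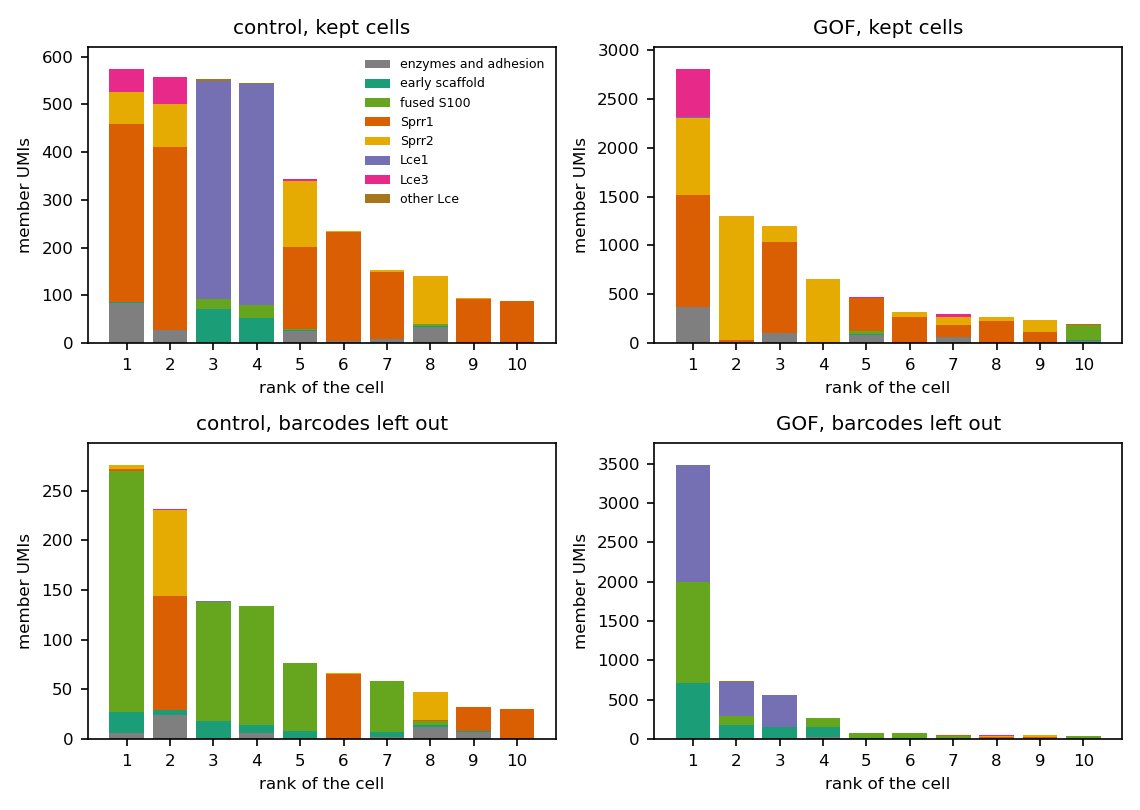
Member UMIs (vertical axes, scaled per panel) in the 10 richest kept cells (top) and 10 richest barcodes left out by the filters (bottom) of each library, stacked by gene family. Kept cells are led by Sprr genes except control cells 3 and 4 (Lce1) and GOF cell 10 (fused S100), whereas fused S100 genes, mainly Flg, lead 5 of the 10 control barcodes and Lce1 genes lead the first 3 GOF barcodes.

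In GOF, the barcodes with the highest shares of member UMIs lay among those the filters on cells left out. In the control the highest share was 9.64% in a kept cell and 6.68% in a left-out barcode. Left-out barcodes had 215.7 CPM [211, 220.5] of member UMIs in the control and 603 CPM [589.8, 617] in GOF. Without the 4 richest barcodes of each library these were 194.7 and 215.6 CPM. Flg was at 19.8 and 127 CPM in the left-out barcodes, beside 1.94 and 2.43 CPM in kept cells. The richest GOF barcode had 961 genes, 7454 UMIs and 3486 member UMIs, 46.8% of its content, with 1189 of Flg, 705 of Lor and 1490 of Lce1 genes. Another 2 GOF barcodes with 608 and 559 genes had 736 and 559 member UMIs, 25.8% and 19.2%, with 439 and 398 of Lce1. All 14 Lce1 genes were detected in each of the 3, with 4, 5 and 1 Krt10 UMIs. These 3 held 2327 of the 2507 left-out GOF Lce1 UMIs (92.8%). With the gene minimum lowered to 500, which takes them in, the summed Lce1 ratio was 1.5 in place of 0.14, the sum over all members 1.18 in place of 0.93, and of 36 measured members 1 was lower in GOF, beside 2.26% of all genes, and 16 were higher, beside 2.44%. The direction of the Lce1 difference therefore turned on whether these few barcodes counted as cells. Without its 4 richest barcodes, the GOF gene-count class that held these 3 was at 259.7 CPM in place of 3016 CPM.

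Genes of the same process outside the 46 were grouped by function. Of 27 cornification partners, 26 were in the feature list and 22 were measured, 2 were lower (Krt2, Kprp) and 2 higher (Scel, Tchh) in GOF, with a median log2 ratio of -0.17. Krtdap, a secreted keratinocyte protein, was at 4901 CPM in the control and 3971 CPM in GOF, the suprabasal keratins Krt10 at 3988 and 2768 CPM, Krt1 at 963 and 1332 CPM, and Krt2 at 1663 and 498 CPM. Of 20 barrier lipid and desquamation enzymes and their regulators, 0 were past 2-fold, with a median of -0.01. The protease inhibitor Cst6 was at 773 and 863 CPM, the protease Ctsd at 222 and 199 CPM, the kallikrein Klk8 at 59.8 and 62.6 CPM and the lipase cofactor Abhd5 at 59.1 and 61.7 CPM. Of 15 transcription factors of terminal differentiation 0 were past 2-fold, with a median of -0.06, and Klf4, Maf, Hopx and Cebpb had log2 ratios of 0.02, 0.14, -0.25 and 0.00. The 10 genes most like the summed members across 45 groups of cluster and library, by Pearson correlation of log2(CPM + 1), were Cldn4 (0.85), Alox12b (0.83), Sult2b1 (0.80), Nbeal2 (0.80), Abca12 (0.80), Kctd11 (0.80), Rnh1 (0.79), Rbp2 (0.79), Nkpd1 (0.78) and Slc6a20a (0.78). These groups share 2 libraries, and the values are a description.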

How the data were processed

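The deposited files hold raw UMI counts per gene and cell barcode, 1 matrix per library, from Cell Ranger 6.1.1, per the file headers. Seurat 4.2.0, R 4.3.0 and mm10 are listed in the submitters' processing notes, and the labels' protocols name 10x Chromium 3′ libraries with chip and library reagents of different versions. No source used here gives the filter that chose the barcodes. All count columns were used. Kept cells had at least 1500 genes and at most 10% mitochondrial counts. Per library, UMIs were added up and scaled to 1000000 UMIs of the same cells (CPM). Intervals are exact (Poisson for levels, conditional for ratios, Clopper-Pearson for shares) and cover counting error only, and no test was possible with 1 library per genotype. Calls at 2-fold and interval coverage were tested on simulated data.

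Clustering used scanpy 1.11.5 (2000 variable genes, 30 principal components, 15 neighbours, Leiden resolution 1) without the members, Birc5, mitochondrial, ribosomal protein and sex genes. Scrublet's automatic cutoff marked 0 cells as doublets and so did not work. The 6% of cells with the top scores, 699 control and 428 GOF, stayed in all library sums and out of the clusters. A cluster took the name of a marker list when at least 50% of the list's detected markers, and at least 3, were 2-fold or more above the other cells and the list led among the 10 leading genes. This rule was chosen after seeing the data, and names may differ from those of the study.

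Named in full were the 10 single genes, the 3 members with the most UMIs in each Sprr or Lce family, the 4 genes with the most UMIs of each related list, and the 10 non-members most like the summed members. Other members named were those past 2-fold or under the UMI minimum. The members and lists were chosen with earlier results of these data known. Promoter windows came from RefSeq for GRCm38.p6. Alternatives changed the cell filters, doublets, sex, scaling, UMI minimum, richest cells, clustering and thinning.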

Additional observations from a re-analysis of the deposited data

Results flagged for a closer look

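Several member families were higher in GOF than in control among the barcodes the cell filters left out, data that the comparisons of kept cells do not use. Lce1 was at 192.3 CPM in GOF and 8.88 CPM in the control, the scaffold genes Lor and Ivl at 107.9 and 11.4 CPM, and the fused S100 family with Flg at 140.4 and 22.4 CPM. The enzymes and adhesion proteins were at 43.0 and 31.2 CPM, Lce3 at 4.91 and 1.62 CPM, and Lce6a at 0.767 and 0.162 CPM. The richest 4 GOF barcodes held 5053 of the 7860 left-out member UMIs, mainly of the Lce1, scaffold and fused S100 families. The levels of these 3 families thus describe few barcodes. This does not hold for the enzymes and adhesion proteins, where no GOF barcode held more than 30 of the 561 UMIs. Of the 64 Lce3 UMIs, 19 were in 1 barcode, which was not among those 4. Lce6a had 10 UMIs there.

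The ratios of Casp14 and Lor lay on opposite sides of 1 in different cell states. Casp14 was at 7.59 CPM in the control and 3.33 CPM in GOF in infundibulum-like cluster 1, and at 2.97 and 6.45 CPM in unnamed cluster 20, on 4 and 48 UMIs. Lor was at 8.48 and 3.35 CPM in unnamed cluster 9 and at 59.8 and 6.53 CPM in cluster 15, but at 2.37 and 5.65 CPM in unnamed cluster 0. Of the 133 control Lor UMIs of cluster 15, 69 and 51 were in its 2 Lce1-rich cells. In melanocyte-like cells, which should lack both genes, Lor was at 6.35 and 6.27 CPM and Casp14 at 3.97 and 2.41 CPM. The levels in clusters 0, 9 and 20 lie around these, and no opposite change is read from them. The difference was not tested, since each genotype has 1 library.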

How the results depend on the processing

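No paired analysis was possible because each genotype has 1 library and the labels carry no replicate numbers. The summed GOF to control ratio (0.93) was 1.18 with a minimum of 500 genes, 0.895 with up to 20% mitochondrial counts, 0.972 without top doublet scores, 0.777 in male-called cells, 0.878 with median-of-ratios scaling, 0.594 without the 10 richest cells of each library and 0.575 without cluster 24. It was 1.03 without clusters 13, 14 and 19 and the 2 Lce1-rich cells. The number of members 2-fold higher (7) was 16 at 500 genes, 4 in male-called cells, 3 at a minimum of 200 UMIs, 4 without the richest cell of each member, and 0 both without the 10 richest cells and without cluster 24. The number lower (12) was 1 at 500 genes, 4 at 200 UMIs, and 1 without clusters 13, 14 and 19 and the 2 Lce1-rich cells. Shares over all genes are given above for the main counts, for 500 genes and for the settings that leave out clusters. The other counts have no such share beside them and are not read as departures from it. The members' median log2 ratio (-0.48) turned to 0.52 at 500 genes. It was -1.83 in male-called cells, -0.089 at 200 UMIs, -0.95 without the 10 richest cells, -0.73 without the richest cell of each member and -1.26 without cluster 24.

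The thinned share of cells with a member UMI (22.8% control, 12.3% GOF) was 24.4% and 15.02% with 20% mitochondrial counts, 13.5% and 7.73% at 1500 UMIs, and 42.8% and 36.8% unthinned. In the control it was 21.1% at 2000 genes and 21.6% in male-called cells. The share of member UMIs in clusters 3 and 18 (29.4% control, 19.1% GOF) was 30.6% and 15.3% at 500 genes, 28.2% and 18.3% at resolution 0.6, and 27.8% and 17.5% at resolution 1.5. It was 30.7% in the control at 2000 genes and 17.9% in GOF with the members in the clustering. With 20% mitochondrial counts it was 17.3% and 10.9%, where no cluster met the scale name. The richest 1% of cells (38.1% control, 68.5% GOF) held 39.2% and 75.4% at 500 genes, 36.7% and 65.5% with 20% mitochondrial counts, 39.1% and 70.3% without top doublet scores, 41.0% and 70.1% in male-called cells, and 23.7% and 40.1% without the 10 richest cells.

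Among single genes and families, directions turned at 500 genes for Lce1a2 (log2 0.21), Lce1b (0.33), Lce1l (0.10) and summed Lce1 (ratio 1.498). They turned in male-called cells for Lce3c (-2.29), Lce3d (-2.29) and summed Lce3 (ratio 0.21). Sprr2d was at -0.79 without the 10 richest cells and -0.96 without cluster 24, and Lce1a2 at 0.16 without clusters 13, 14 and 19 and the Lce1-rich cells. Settings that leave out clusters or Lce1-rich cells were chosen after seeing the data. Where a setting leaves cells out or takes barcodes in, the change in sums, ratios and calls follows from those cells. The share held by the differentiating-like and scale-like clusters also rests on a new clustering and naming when the cell filters change. These parts were not told apart. For the other settings the cause was not tested. Depth limits the members with few UMIs, which were not called.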

Other observations

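In a few small clusters outside the keratinocyte differentiation states, members came from few cells. Inner follicle-like cluster 7 had 35 control and 28 GOF cells, at 30.6 CPM [17.5, 49.7] and 367 CPM [315, 424]. Cnfn, the envelope protein cornifelin, had 0 UMIs there in the control and 86 in GOF (175 CPM), in 4 cells, 46 of them in 1. The inner follicle markers themselves summed to 1206 CPM in the control and 11293 CPM in GOF there, and their part in this difference was not tested. Ivl had 2 and 29 UMIs, 27 of the latter in 1 cell. In immune-like cluster 21, 1 GOF cell held 131 of the 164 member UMIs. In interferon-inducible-like cluster 25, 1 GOF cell held 63 of the 122. The lone GOF cell of cluster 19 had 177 member UMIs among 62001, mainly Sprr2 (104) and Sprr1 (68). No explanation was tested for these cells.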
